A study of Mus musculus with 15 samples.

Results

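Integrins are the receptors with which microglia hold on to matrix, to other cells and to opsonised debris, and 10 of their subunit genes were followed here in sorted retinal microglia: the alpha subunits Itgax, Itgam, Itgal, Itgav, Itga6, Itga4 and Itga9 and the beta subunits Itgb2, Itgb5 and Itgb1. They were chosen by name, as subunits found on microglia and other myeloid cells, with earlier results of these data known. All 10 were found among the 35519 genes of the deposited tables. The filter on low counts left 6521 genes for testing, 9 of the 10 integrin genes among them, and left out Itgal.

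An integrin is a pair of an alpha and a beta chain, and the pair decides what is bound. The beta chain of Itgb2 pairs with those of Itgam (complement receptor 3), Itgax (complement receptor 4) and Itgal (LFA-1), which bind complement fragments or ICAMs, and the chain of Itgb1 pairs with those of Itga4, Itga6 and Itga9, which bind VCAM-1 and fibronectin, laminins, and tenascin or osteopontin. The chain of Itgav pairs with that of Itgb5 in a vitronectin receptor that takes part in the uptake of dying cells, and also with Itgb1. Itgax encodes CD11c, a dendritic cell marker that microglia also acquire in disease-associated states.

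The study set microbead-injected retinas against sham-injected retinas of 2 genotypes. Microbeads obstruct fluid drainage and so increase eye pressure, a model of glaucoma, and Apoe encodes apolipoprotein E, a lipid carrier made by microglia. The groups were wild-type (WT) microbead retinas (n = 3), WT sham retinas (n = 4), Apoe-/- microbead retinas (n = 4) and Apoe-/- sham retinas (n = 4), all from C57BL/6 mice of 12 weeks. From each retina 100 to 600 cells were sorted by surface Fcrls and CD11b and by absence of Ly6c, and their RNA was sequenced in bulk. CD11b is the protein of Itgam, so every cell studied had been gated on that integrin, and the level of Itgam describes gated cells only. Apoe-/- is a deletion in all cells of the mouse, not in microglia alone. The labels do not state whether numbered retinas belong to different animals, so p-values reflect sample-to-sample spread that may be partly technical.

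Libraries held 458111 to 714670 gene reads. After TMM scaling their sizes ran from 225227 (Apoe-/- sham library 2) to 1000258 (WT microbead library 2), so that 3 reads, taken as the limit behind a count of 0, stood for 3.00 to 13.3 CPM (counts scaled to a common library size). Such limits cover counting error only. The deleted gene followed the labels, with 3 to 5 Apoe reads in Apoe-/- microbead libraries and 0 to 6 in Apoe-/- sham libraries, against 3894 to 15125 in WT microbead and 667 to 1225 in WT sham libraries. All 8 microglial markers were present, with summed levels of 9246 to 11795 CPM in WT microbead, 11196 to 12834 in WT sham, 7725 to 12847 in Apoe-/- microbead and 6198 to 12624 in Apoe-/- sham libraries. Major satellite repeat models took 40.8 to 53.5% of gene reads in WT microbead, 55.9 to 66.6% in WT sham, 55.4 to 70.7% in Apoe-/- microbead and 64.7 to 74.4% in Apoe-/- sham libraries. In bulk RNA, fewer cells of a type and less RNA per cell cannot be told apart.

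The leukocyte integrin genes Itgal, Itgam and Itgax lie in that order on the plus strand of chromosome 7 (mm10), at chr7:127296260-127335138, chr7:128062640-128118491 and chr7:128129547-128150657, with 11055 bases between the end of Itgam and the start of Itgax. The promoter windows of Itgax and Itgam are shown because, of these neighbours, Itgax passed the test after microbeads in WT microglia and Itgam did not, and that of Itgav because its libraries were lower after microbeads in both genotypes. The windows run from 250 bases before to 50 bases after the start of a gene, on the plus strand (RefSeq, build GRCm38.p6), at chr7:128129300-128129599 for Itgax, chr7:128062390-128062689 for Itgam and chr2:83724147-83724446 for Itgav. Capitals mark GAGGAA or its reverse complement TTCCTC, a core of the sites bound by PU.1, a factor of myeloid cells.
Itgax: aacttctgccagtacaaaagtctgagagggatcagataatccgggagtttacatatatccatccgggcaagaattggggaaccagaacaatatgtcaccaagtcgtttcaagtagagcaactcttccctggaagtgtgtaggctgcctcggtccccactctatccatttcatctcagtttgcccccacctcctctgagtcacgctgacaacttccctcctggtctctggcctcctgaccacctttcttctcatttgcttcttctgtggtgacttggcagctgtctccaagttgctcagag
Itgam: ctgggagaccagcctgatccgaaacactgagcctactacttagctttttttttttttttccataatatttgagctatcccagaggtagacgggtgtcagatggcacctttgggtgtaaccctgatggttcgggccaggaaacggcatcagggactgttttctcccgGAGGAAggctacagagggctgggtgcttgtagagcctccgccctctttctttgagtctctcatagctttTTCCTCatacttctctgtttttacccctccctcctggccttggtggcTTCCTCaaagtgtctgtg
Itgav: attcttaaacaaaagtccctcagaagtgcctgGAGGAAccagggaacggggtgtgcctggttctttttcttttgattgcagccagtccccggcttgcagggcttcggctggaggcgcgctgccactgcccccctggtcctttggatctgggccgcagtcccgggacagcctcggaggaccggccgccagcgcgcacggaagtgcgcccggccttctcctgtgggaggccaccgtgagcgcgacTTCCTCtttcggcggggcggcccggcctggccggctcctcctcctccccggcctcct
The Itgam window held 3 matches, the Itgav window 2 and the Itgax window 0. Of 32851 promoter windows of the same length in the mouse table, 28.3% held at least 1 match on either strand. Windows were found for 7 of the 10 genes. Itgb1 had 1 match, and Itgb5 and Itga4 had 0. The window listed for Itga9, with 0 matches, starts at base 118711442 of chromosome 9, far inside the gene, which starts at base 118606690 in the annotation used here. A match is only a run of letters, and 0 matches says only that these letters are not in the window.

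Levels of different genes were compared in TPM, an abundance scaled by transcript length and library total. As a yardstick, 1511 genes of odorant, vomeronasal, taste and trace-amine receptors averaged 0.768 TPM, with library means of 0.476 to 1.34. Over the 15 libraries the integrin genes averaged 24.7 TPM for Itgb5, 22.6 for Itgb2, 16.1 for Itga6, 15.8 for Itgam, 8.34 for Itgav, 3.50 for Itgb1, 1.89 for Itgax, 1.5 for Itga4, 1.27 for Itga9 and 0.374 for Itgal. Itgb5, Itgb2, Itga6 and Itgam thus led, and each was over 3 times the receptor-gene mean of the same library in 15 of 15 libraries. Itgav passed that mark in 14 libraries, Itgb1 in 11, Itgax in 4, Itga9 in 3, Itga4 in 2 and Itgal in 0. Of the receptor genes, 8.01% had a higher mean than Itgax.

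**Figure D1:**
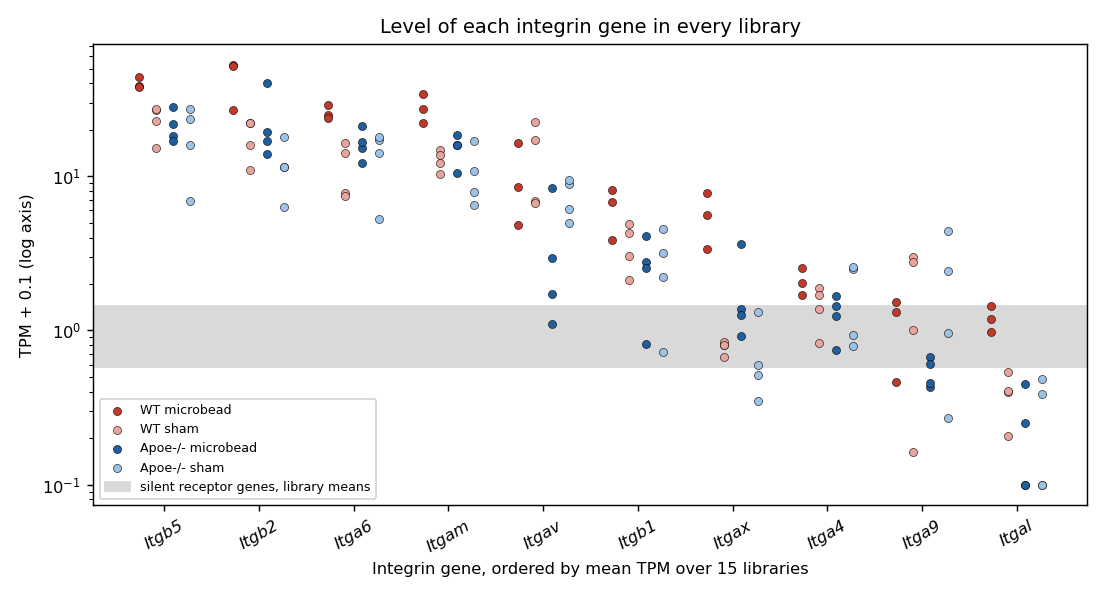
Each point is the level of an integrin gene in 1 library, as TPM + 0.1 on a log axis, with genes ordered by their mean over 15 libraries and the 4 groups side by side (dark red, WT microbead; light red, WT sham; dark blue, Apoe-/- microbead; light blue, Apoe-/- sham). The grey band spans the library means of 1511 receptor genes, 0.476 to 1.34 TPM (also plotted with 0.1 added). Itgb5, Itgb2, Itga6 and Itgam lie above the band in every library, Itgax lies above it in the 3 WT microbead libraries and 1 Apoe-/- microbead library, and Itgal lies in or below it.

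The order of levels within a group was clear only in part. In WT microbead libraries Itgb2 came first (43.8 ± 14.7 TPM, SD, n = 3) and Itgb5 next (40.0 ± 3.48 TPM), with overlapping ranges, and Itgb5 lay above Itgam (27.8 ± 6.03 TPM) without overlap. In WT sham libraries Itgb5 came first (23.0 ± 5.67 TPM, n = 4), and the ranges of neighbours in the order overlapped down to Itga6. A gap without overlap followed there, between Itga6 and Itgb1. Itgax was 7th of 10 in both microbead groups and 9th in both sham groups.

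The question put to the first comparison was which integrin genes changed with microbeads in WT microglia. Itgax rose and was the only one of the 9 genes tested to pass the threshold. It had 28, 63 and 34 reads in WT microbead libraries, against 6, 7, 8 and 7 in WT sham libraries. Scaled for library size these were 40.6, 63.0 and 45.4 CPM in WT microbead libraries, against 9.11, 12.2, 9.59 and 15.1 CPM in WT sham libraries. Every WT microbead library lay above every WT sham library. In TPM the values were 3.26, 7.65 and 5.47 in WT microbead libraries, against 0.567, 0.704, 0.744 and 0.705 in WT sham libraries, where the receptor-gene means were 0.549 to 0.907. The sham level of Itgax therefore lay within the range of the receptor-gene means, and the fold below is set against that level.

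The log2 fold change of Itgax in CPM was 2.13 (SE 0.39, 95% interval 1.31 to 2.95), which is 4.37-fold, with an adjusted p of 0.0179 (edgeR quasi-likelihood test, Benjamini-Hochberg over 6521 genes). Of all genes tested, 0.199% were called in this comparison, all of them higher in WT microbead libraries. The call was lost when 6 of the 7 WT libraries were left out in turn, with an adjusted p of 0.0992 without WT sham library 1, 0.0786 without 2, 0.12 without 3 and 0.0514 without 4, 0.223 without WT microbead library 2 and 0.0625 without 3. The log2 fold change stayed between 1.91 and 2.25 in those fits. The call was also lost with transcript length offsets (2.17, adjusted p 0.134) and with log2(TPM + 0.1) (2.76, adjusted p 0.0551).

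Itgax marks dendritic cells as well, so markers of other myeloid cells stand beside its rise. The 6 dendritic cell markers summed to 11 to 17.4 CPM in WT microbead and 7.19 to 21.5 CPM in WT sham libraries, with ranges that overlapped. Summed over libraries, Zbtb46 had 15 reads in the 3 WT microbead and 8 in the 4 WT sham libraries, Flt3 8 and 7, Cd209a 6 and 2, Xcr1 4 and 12, Clec9a 0 and 4 and Ccr7 1 and 0. The markers differed in direction and all had few reads. The 6 monocyte markers summed to 10.1 to 24.0 CPM in WT microbead and 3.49 to 28.0 CPM in WT sham libraries. The 6 neutrophil markers summed to 0 to 3.00 CPM in WT microbead and 0 to 2.15 CPM in WT sham libraries, with S100a9 and Camp at 0 reads throughout. The 6 markers of border-associated macrophages summed to 31.9 to 107 CPM in WT microbead and 28.0 to 68.3 CPM in WT sham libraries. The ranges in CPM overlapped for each of these lists. In TPM the border-associated macrophage sums did not overlap, at 10.5 to 44.4 in WT microbead and 2.19 to 8.91 in WT sham libraries. On that scale 21.7% of all genes tested lay above without overlap. The border-associated macrophage markers differed among themselves. Ms4a7 had 95 reads in WT microbead and 24 in WT sham libraries (log2 fold change 1.89, SE 0.50, unadjusted p 0.00121, adjusted p 0.18, edgeR). F13a1 had 51 and 32 reads and Cbr2 3 and 0, while Mrc1 had 16 and 40, Cd163 2 and 23 and Lyve1 3 and 5.

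Markers of rod photoreceptors, the light-sensing cells that make up much of the retina, stand beside the same comparison. The 8 rod markers summed to 80.0 to 526 CPM in WT microbead and 472 to 2118 CPM in WT sham libraries, and of 7 tested none was positive and 4 had an unadjusted p under 0.05 (median log2 fold change -1.91), but 0 passed over all genes (edgeR). Of the 6 platelet markers only Gp9 was tested, with 1 read in WT microbead and 38 in WT sham libraries (log2 fold change -4.55, adjusted p 0.0922, edgeR). Of the 8 microglial markers 1 was positive and 2 had an unadjusted p under 0.05 (median log2 fold change -0.25, edgeR), and 0 passed over all genes. The part of these markers in the Itgax result was not tested. With the satellite models left out of the fit Itgax had 2.15 (adjusted p 0.0155, edgeR). That fit does not adjust for the satellite share, 40.8 to 53.5% in WT microbead and 55.9 to 66.6% in WT sham libraries. Nor is it a test of the rod, platelet or microglial markers.

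The other complement receptor genes of the leukocyte family did not pass the test. Itgam had 216, 197 and 307 CPM in WT microbead libraries, against 187, 187, 168 and 232 CPM in WT sham libraries, a log2 difference of 0.31 (SE 0.29, adjusted p 0.84, edgeR). Its shared beta chain gene, Itgb2, had 240, 285 and 304 CPM in WT microbead libraries, against 252, 197, 203 and 168 CPM in WT sham libraries, a log2 difference of 0.43 (SE 0.32, adjusted p 0.773, edgeR). In both genes the groups overlapped in CPM. Their 95% intervals were -0.29 to 0.91 for Itgam and -0.24 to 1.10 for Itgb2.

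In TPM the WT microbead libraries lay above the WT sham libraries for Itgam (22.2, 27.1 and 34.2 against 14.6, 13.7, 12.0 and 10.2), for Itgb2, for Itgb5 and for Itga6, as they did for 21.7% of all genes tested in TPM. On the log2(TPM + 1) scale, however, the median of all genes was itself higher by 0.59 in WT microbead libraries, and the changes of 1.07 in Itgam and 1.25 in Itgb2 are to be read against it. Neither passed the test on that scale (adjusted p 0.119 each, limma). Itgax was called there, at 1.89 (adjusted p 0.00812, limma).

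Itgal, which encodes the alpha chain of LFA-1, had the fewest reads of the 10 integrin genes. It had 7, 15 and 7 reads in WT microbead libraries, against 4, 1, 3 and 4 in WT sham libraries, 0, 3, 2 and 0 in Apoe-/- microbead libraries and 0, 2, 0 and 4 in Apoe-/- sham libraries. The WT microbead libraries were higher than the WT sham libraries in reads, and also at 10.1, 15 and 9.34 CPM against 6.08, 1.75, 3.60 and 8.60 CPM. Of the genes tested, a set without Itgal, 6.32% lay above in CPM in the same way. With no filter on low counts, which took in 28112 genes, the log2 fold change was 1.27 (SE 0.81, adjusted p 0.773, edgeR). Between genotypes in microbead retinas it was -2.14 (SE 0.90, unadjusted p 0.0174, adjusted p 0.761, edgeR). No Apoe-/- microbead library reached the WT microbead range in CPM, as held for 3.70% of the genes tested. The 0 counts allow up to 6.21 and 4.67 CPM in Apoe-/- microbead libraries 1 and 4 and up to 7.14 and 5.22 CPM in Apoe-/- sham libraries 1 and 3.

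Neither of the vitronectin receptor genes passed the test. Itgav had 15, 13 and 13 reads in WT microbead libraries, against 20, 23, 27 and 18 in WT sham libraries, or 21.7, 13 and 17.3 CPM against 30.4, 40.2, 32.4 and 38.7 CPM. Every WT microbead library lay below every WT sham library, as did 4.22% of all genes tested. Its log2 fold change was -1.03 (SE 0.31) with an unadjusted p of 0.00345, and it did not pass over all genes (adjusted p 0.33, edgeR). In TPM the groups overlapped, at 16.3, 8.42 and 4.71 in WT microbead libraries against 6.80, 17.0, 22.4 and 6.61 in WT sham libraries. Its partner Itgb5 had 313, 187 and 179 CPM in WT microbead libraries, against 202, 273, 200 and 194 CPM in WT sham libraries. The groups overlapped, and the log2 fold change was 0.058 (SE 0.31, adjusted p 0.988, edgeR).

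Among the beta-1 integrin genes none passed. Itgb1 had 30.4, 47.0 and 37.4 CPM in WT microbead libraries, against 30.4, 54.2, 33.6 and 23.7 CPM in WT sham libraries (log2 fold change 0.11, SE 0.40, adjusted p 0.971, edgeR). The laminin receptor chain gene Itga6 had 91.2, 54.0 and 66.7 CPM in WT microbead libraries, against 56.2, 66.4, 60.0 and 58.1 CPM in WT sham libraries (log2 fold change 0.22, SE 0.28, adjusted p 0.888, edgeR). Itga4, a chain of the VCAM-1 receptor, had 31.9, 25.99 and 20.01 CPM in WT microbead libraries, against 22.8, 19.2, 33.6 and 47.3 CPM in WT sham libraries. The groups overlapped in all of these genes, and the log2 fold change of Itga4 was -0.23 (SE 0.49, adjusted p 0.948, edgeR), with a positive sign in TPM.

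Itga9, whose chain binds tenascin and osteopontin, had 5, 5 and 2 reads in WT microbead libraries, against 17, 15, 15 and 1 in WT sham libraries. In CPM it had 7.24, 5.00 and 2.67 in WT microbead libraries, against 25.8, 26.2, 17.98 and 2.15 in WT sham libraries. WT sham library 4 lay below all WT microbead libraries, and the other 3 WT sham libraries lay above them. Its log2 fold change was -1.86 (SE 0.63, unadjusted p 0.0079) and did not pass over all genes (adjusted p 0.454, edgeR). No microbead library of either genotype had more than 8 reads, so Itga9 passed the low-count filter through its sham libraries. Its p-values for microbead against sham retinas are to be read with that choice.

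Over the 9 integrin genes tested, 1 was called in WT microglia, and 3 had an unadjusted p under 0.05 where 7.87% of all genes did. Itga9, 1 of these 3, passed the low-count filter through its sham libraries only. Groups without overlap in CPM were found for 1 gene above (Itgax), where 6.32% of all genes lay, and for 1 gene below (Itgav). The median log2 fold change of the 9 genes was 0.11 with 6 positive, beside -0.011 and 49.1% positive over all genes tested.

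**Figure D2:**
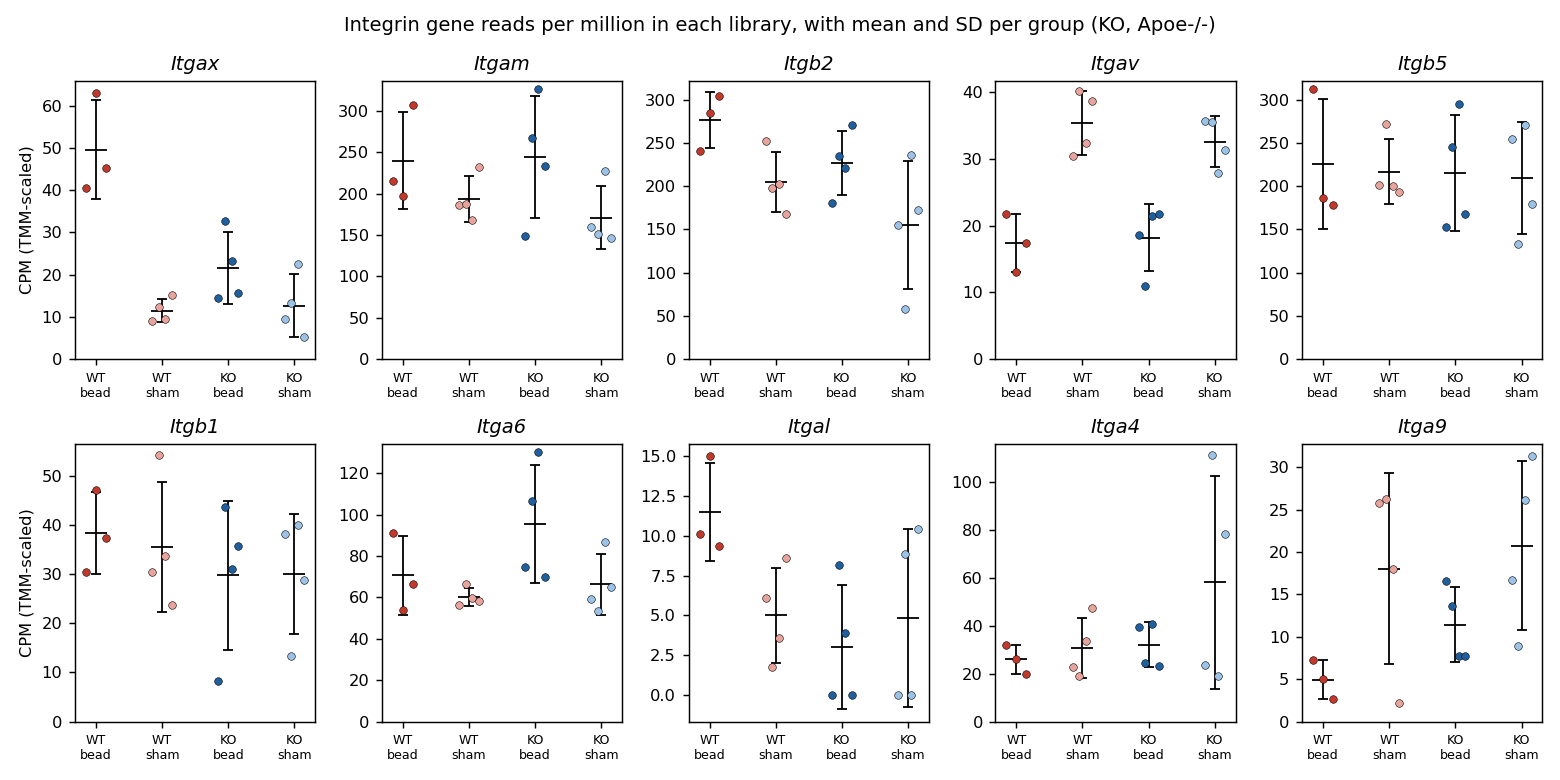
CPM of each integrin gene in every library (points), in the order WT microbead (n = 3), WT sham (n = 4), Apoe-/- microbead (n = 4) and Apoe-/- sham (n = 4), with the mean (bar) and SD (whiskers), where KO stands for Apoe-/- and bead for microbead. The axes start at 0 except for Itgal, whose SD reaches below it, and differ between genes. The WT microbead libraries of Itgax (40.6 to 63.0 CPM) stand above all other libraries, and the microbead libraries of Itgav stand below the sham libraries in both genotypes.

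The same comparison was made in Apoe-/- microglia. No integrin gene passed the test there, and no gene of the 6521 did (0% called, with 453 genes, 6.95%, at an unadjusted p under 0.05). DESeq2 also called 0. With no filter on low counts 37 of 28112 genes were called (edgeR), with no integrin gene among them. Itgax had 7, 12, 12 and 10 reads in Apoe-/- microbead libraries, against 4, 3, 13 and 2 in Apoe-/- sham libraries. These were 14.5, 32.8, 23.3 and 15.6 CPM in Apoe-/- microbead libraries, against 9.52, 13.3, 22.6 and 5.22 CPM in Apoe-/- sham libraries. Apoe-/- sham library 3 lay within the microbead range, so the groups overlapped. The log2 fold change was 0.66 (SE 0.43, 95% interval -0.24 to 1.56, adjusted p 0.751, edgeR). The 6 dendritic cell markers summed to 9.33 to 14.5 CPM in Apoe-/- microbead libraries, below the 20.9 to 57.7 CPM in Apoe-/- sham libraries. Of single genes tested, 0.951% lay below in this way. Flt3 had 8 reads in Apoe-/- microbead and 12 in Apoe-/- sham libraries, Zbtb46 6 and 9, Xcr1 7 and 15, Clec9a 2 and 7 and Cd209a 1 and 1. Of the rod markers 7 of 7 tested were positive (median log2 fold change 0.81), and of the border-associated macrophage markers 3 of 3. None of these rod or macrophage markers had an unadjusted p under 0.05 (edgeR). The part of these markers in the Itgax values was not tested.

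Itgav was again lower in every microbead library. It had 9, 4, 11 and 14 reads in Apoe-/- microbead libraries, against 15, 8, 16 and 12 in Apoe-/- sham libraries. In CPM these were 18.6, 10.9, 21.4 and 21.8 in Apoe-/- microbead libraries, against 35.7, 35.5, 27.8 and 31.3 in Apoe-/- sham libraries. The groups did not overlap in CPM, which held below for 0.951% of all genes tested, although they overlapped in reads and in TPM. Its log2 fold change was -0.79 (SE 0.31, unadjusted p 0.0203, adjusted p 0.7, edgeR).

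The complement receptor genes had log2 fold changes of 0.50 for Itgam (SE 0.27, adjusted p 0.711) and 0.52 for Itgb2 (SE 0.31, adjusted p 0.74) in Apoe-/- microglia (edgeR). Itgam had 149, 268, 327 and 233 CPM in Apoe-/- microbead libraries, against 159, 151, 228 and 146 CPM in Apoe-/- sham libraries. Itgb2 had 180, 235, 222 and 271 CPM in Apoe-/- microbead libraries, against 155, 57.7, 237 and 172 CPM in Apoe-/- sham libraries. In both genes the groups overlapped, and the lowest Itgb2 value came from Apoe-/- sham library 2, the library with the smallest TMM-scaled size.

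Of the remaining genes, Itga6 had 74.6, 107, 130 and 70.0 CPM in Apoe-/- microbead libraries, against 59.5, 53.3, 87.0 and 65.2 CPM in Apoe-/- sham libraries (log2 fold change 0.50, SE 0.27, adjusted p 0.711, edgeR). Itga4 had 39.4, 24.6, 40.8 and 23.3 CPM in Apoe-/- microbead libraries, against 23.8, 111, 19.1 and 78.3 CPM in Apoe-/- sham libraries (log2 fold change -0.75, SE 0.47, adjusted p 0.747, edgeR). Libraries 2 and 4 of the Apoe-/- sham group were the highest of all 15 for Itga4 in CPM, while the other Apoe-/- sham libraries lay near the WT values. Itga9 had 16.6, 13.7, 7.78 and 7.78 CPM in Apoe-/- microbead libraries, against 16.6, 8.88, 26.1 and 31.3 CPM in Apoe-/- sham libraries (log2 fold change -0.94, SE 0.57, adjusted p 0.745, edgeR). Itgb5 had 153 to 295 CPM in Apoe-/- microbead and 133 to 271 CPM in Apoe-/- sham libraries, and Itgb1 had 8.29 to 43.7 CPM in Apoe-/- microbead and 13.3 to 40.0 CPM in Apoe-/- sham libraries. Both spreads were wide, and the log2 fold changes were 0.026 (SE 0.29) for Itgb5 and -0.096 (SE 0.42) for Itgb1. No gene lay above without overlap, where 1.55% of all genes did. The median over the 9 genes was 0.026 with 5 positive, beside 50.8% positive over all genes tested.

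**Figure D3:**
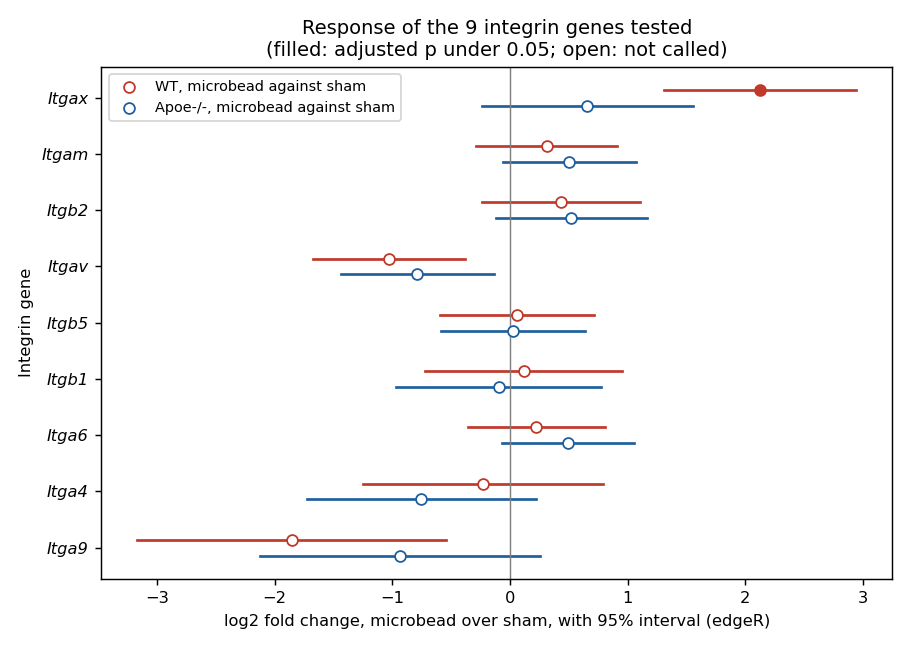
Log2 fold change of microbead over sham retinas with its 95% interval for the 9 integrin genes tested, in WT (red, upper mark of each pair) and Apoe-/- microglia (blue, lower mark), from edgeR. The mark of Itgax in WT microglia (2.13, interval 1.31 to 2.95) is the filled one, for an adjusted p under 0.05. All other marks are open.

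Whether the response differed between genotypes was tested directly, as the Apoe-/- response minus the WT response. For Itgax the difference was -1.47 on the log2 scale (SE 0.59, 95% interval -2.71 to -0.24) with an unadjusted p of 0.022. For the rod markers the same difference was positive in 7 of 7 tested, with a median of 2.61 and 5 at an unadjusted p under 0.05 (edgeR). Of 3 border-associated macrophage markers tested, 1 was positive and 2 had an unadjusted p under 0.05. The platelet gene Gp9 had 3.33, also under 0.05. Of the microglial markers 8 of 8 were positive (median 0.36), with 0 under 0.05. The part of these markers in the Itgax value was not tested. The Itgax difference did not pass over all genes (adjusted p 1.00, edgeR), nor did any other gene (0% called, with 221, 3.39%, at an unadjusted p under 0.05). DESeq2 also called 0. With no filter on low counts 45 of 28112 genes were called (edgeR), and with log2(TPM + 1) 5 genes were (limma). No integrin gene was among them. For Itga9 the difference was 0.92 (SE 0.84), and its sign was negative in the TPM fits and with transcript length offsets. A call in WT and none in Apoe-/- microglia is therefore not a shown difference between the genotypes.

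Between genotypes the libraries were set side by side in each treatment. In microbead retinas Itgax had 14.5 to 32.8 CPM in Apoe-/- libraries, against 40.6 to 63.0 CPM in WT libraries, and the ranges did not overlap, as held in the same direction for 3.70% of all genes tested. The log2 fold change was -1.24 (SE 0.38, unadjusted p 0.00365, adjusted p 0.478, edgeR), in a comparison that called 0.046% of genes. On log2(TPM + 1) it was -1.30 and was called (adjusted p 0.0487, limma), with the median of all genes at -0.73 on that scale. Of the rod markers 7 of 7 tested were positive between these groups, 3 at an unadjusted p under 0.05 (edgeR). Of 3 border-associated macrophage markers 1 was positive and 2 were under 0.05. Gp9 had 2.99 and the 1 lymphocyte marker tested 2.51, both also under 0.05. The part of these markers in the Itgax value was not tested. Itga9 had 7.78 to 16.6 CPM in Apoe-/- microbead libraries, against 2.67 to 7.24 CPM in WT microbead libraries, without overlap (3.14% of genes lay above), at 1.15 (SE 0.67, adjusted p 0.743, edgeR), and the sign was negative in TPM. The other 7 genes overlapped between the genotypes in CPM. In TPM the libraries of Itgax and Itga9 overlapped, and Itgam, Itgb5, Itga6 and Itga4 lay below without overlap in Apoe-/- microbead libraries, as 24.9% of all genes tested in TPM did.

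In sham retinas Itgax had 5.22 to 22.6 CPM in Apoe-/- libraries, against 9.11 to 15.1 CPM in WT libraries, with overlap. Its log2 fold change was 0.23 (SE 0.45, adjusted p 0.926, edgeR), negative in the TPM fits. Itga4 had 19.1 to 111 CPM in Apoe-/- sham libraries and 19.2 to 47.3 CPM in WT sham libraries (0.83, SE 0.46, adjusted p 0.621, edgeR). Itgb2 had 57.7 to 237 CPM in Apoe-/- sham libraries and 168 to 252 CPM in WT sham libraries (-0.38, SE 0.31, adjusted p 0.751, edgeR). Of the rod markers 0 of 7 tested were positive between these groups (median -1.10), and of the microglial markers 1 of 8 (median -0.36). Neither list had a marker at an unadjusted p under 0.05 (edgeR). Their part in the integrin values was not tested. None of the 9 genes passed, in a comparison that called 0.0153% of all genes, and all overlapped, where 1.2% of all genes lay above and 2.39% below. These comparisons share libraries with those of the microbead responses, and the names of the deposited tables carry one letter for WT and another for Apoe-/- libraries. What the letter stands for is not given in the sources used here, and anything it marks cannot be told apart from genotype.

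A ratio within a library cancels the scaling between libraries, apart from the pseudocount of 1 added here, which weighs most on low genes such as Itgax. The log2 ratios of TPM + 1 were compared for 3 pairs, with 12 exact two-sided permutation tests in all. The ratio of the complement receptor chains, Itgax to Itgam, was -2.44, -1.70 and -2.44 in WT microbead libraries, against -3.32, -3.11, -2.90 and -2.72 in WT sham libraries. The WT microbead libraries were all higher, by 0.816 on average, with an exact p of 0.0286, the smallest that 3 against 4 libraries allow (adjusted p 0.171). In Apoe-/- libraries the ratio was -2.65, -2.88, -2.09 and -2.97 after microbeads and -2.98, -2.64, -3.01 and -2.57 after sham, which overlap (difference 0.154, exact p 0.514). With no pseudocount the ratio of TPM was 0.147 to 0.283 in WT microbead against 0.0388 to 0.0691 in WT sham libraries, without overlap. In Apoe-/- libraries it was 0.0727 to 0.194 after microbeads and 0.0388 to 0.0722 after sham. There the groups were apart only by the step from 0.0722 to 0.0727. In reads the order at that step turned. Apoe-/- microbead library 4 had 10 Itgax and 150 Itgam reads, against 13 and 131 in Apoe-/- sham library 3. No rise of the ratio in Apoe-/- libraries can be read from these values.

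The ratio of the leukocyte beta chain to the beta-1 chain, Itgb2 to Itgb1, was 3.11, 2.47, 2.37 and 3.04 in Apoe-/- microbead libraries, against 1.61, 2.16, 1.78 and 2.00 in Apoe-/- sham libraries. All Apoe-/- microbead libraries were higher, by 0.863 on average, with an exact p of 0.0286, again the smallest possible (adjusted p 0.171). This separation rests on the pseudocount, since the plain ratios of TPM overlapped, at 6.90 to 19.4 in Apoe-/- microbead and 3.72 to 10.03 in Apoe-/- sham libraries. In WT libraries the ratio was 2.55, 2.57 and 2.77 after microbeads and 2.55, 1.54, 2.15 and 1.97 after sham, with a difference of 0.577 (exact p 0.0571, adjusted p 0.229). The groups were apart by less than 0.001, and the plain ratios overlapped, at 6.53 to 7.70 in WT microbead and 3.31 to 7.52 in WT sham libraries. The ratio of Itgav to Itgb5 averaged -2.07 ± 0.69 in WT microbead and -0.90 ± 0.57 in WT sham libraries (SD, n = 3 and 4), and -2.55 ± 1.22 in Apoe-/- microbead and -1.11 ± 1.05 in Apoe-/- sham libraries (SD, n = 4 each). The differences were -1.17 (exact p 0.0857) and -1.44 (exact p 0.171), and the groups overlapped in both genotypes. None of the 12 tests passed after adjustment.

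**Figure D4:**
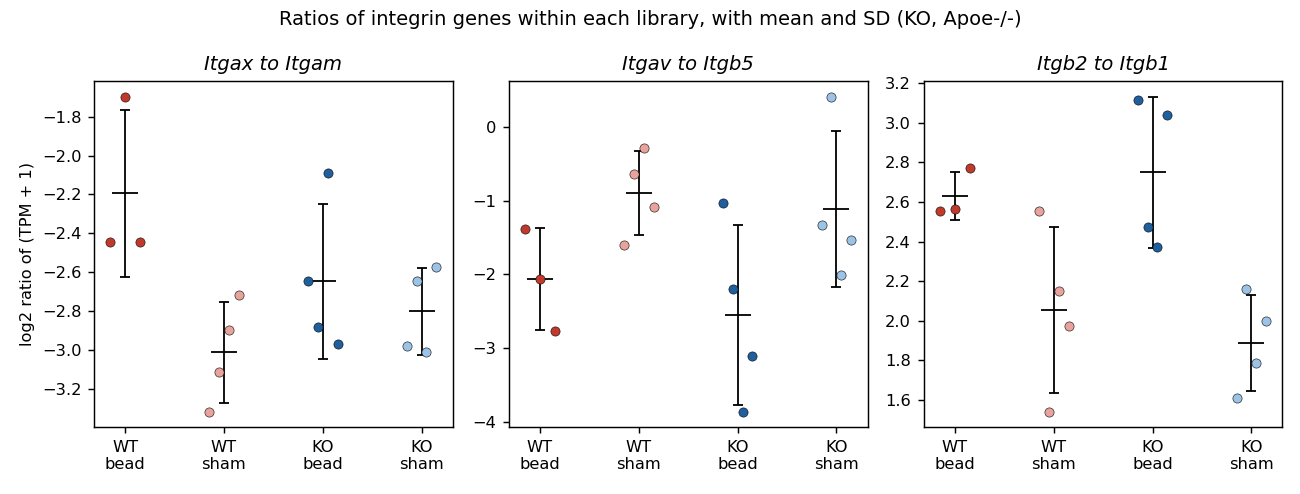
Log2 ratio of TPM + 1 of 3 integrin pairs in every library (points) with mean (bar) and SD (whiskers), by group, where KO stands for Apoe-/- and bead for microbead. The Itgax to Itgam ratio is higher in the 3 WT microbead libraries (-2.44 to -1.70) than in the 4 WT sham libraries (-3.32 to -2.72), and the Itgb2 to Itgb1 ratio is higher in the 4 Apoe-/- microbead libraries (2.37 to 3.11) than in the 4 Apoe-/- sham libraries (1.61 to 2.16), where the ratios without a pseudocount overlapped.

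The transcript models behind each gene were checked. Itgax-201 held 97.5% of Itgax reads, Itgb1-201 97.2% of Itgb1 reads, Itga4-201 96.6% of Itga4 reads, Itgb2-201 89.5% of Itgb2 reads and Itga9-201 87.9% of Itga9 reads. Shares in single libraries fell to 66.7% for Itgax-201 and 48.8% for Itgb2-201 (Apoe-/- microbead), 35.7% for Itgb1-201 (WT sham) and 54.9% for Itga9-201 (WT microbead). Itgb2-201 held 93.0 to 100% in WT sham and 67.9 to 92.0% in Apoe-/- sham libraries. Apoe-/- microbead libraries 2 and 3 each had 12 Itgax reads, but 1.29 and 3.55 TPM. Only library 3 of that group reached the WT microbead range in TPM. Itgam reads were split between the coding models Itgam-201 (60.9%) and Itgam-203 (36.7%), and the share of Itgam-203 ran from 0 to 98.1% in both WT groups, from 0 to 30.5% in Apoe-/- microbead and from 0 to 100% in Apoe-/- sham libraries. Single libraries of 1 group thus fell on either model, so no group difference in isoform can be read from them. Itgb5 reads lay on Itgb5-207 (62.0%), Itgb5-202 (26.4%) and Itgb5-201 (11.4%), and Itgav reads on Itgav-201 (35.97%), Itgav-202 (23.2%) and Itgav-205 (16.4%).

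Of Itga6 reads 38.9% lay on Itga6-203 and 12.2% on Itga6-205, which are annotated as processed transcripts with no coding sequence, beside 33.4% on Itga6-201 and 10.1% on Itga6-207. The TPM of Itga6 therefore counts much that is not annotated as coding. Overlapping genes took few reads: Gm49368, on the strand of Itgam, had 14.7 reads in all libraries together, and Cerkl, opposite Itga4, had 14.8. Whether the counting used strand is not given in the sources used here, so reads in such overlaps are uncertain.

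By the distance between their CPM profiles over the 15 libraries, the genes most like Itgax were Cd63, H2-D1, Arhgap19, Psap and Pld3. The distance is the root mean square difference of log2 CPM centred on each gene's mean, and it was 0.354 for Cd63 and 0.467 for Pld3, beside a median of 0.949 over all genes tested. Cd63, which encodes a tetraspanin of late endosomes, averaged 319 ± 65.5 CPM in WT microbead and 106 ± 28.7 CPM in WT sham libraries (SD, n = 3 and 4), and 171 ± 71.6 CPM in Apoe-/- microbead and 106 ± 17.0 CPM in Apoe-/- sham libraries (SD, n = 4 each). Pld3, which encodes a lysosomal nuclease, averaged 259 ± 69.0 CPM in WT microbead and 74.5 ± 18.5 CPM in WT sham libraries, and 96.8 ± 48.6 CPM in Apoe-/- microbead and 73.9 ± 17.8 CPM in Apoe-/- sham libraries. Both were called in WT microglia (adjusted p 0.0332 for Cd63 and 0.0179 for Pld3, edgeR), whereas H2-D1, Arhgap19 and Psap were not (adjusted p 0.108, 0.454 and 0.111, edgeR). These genes were picked for their likeness to Itgax in the same libraries. Group means and calls like those of Itgax therefore follow in part from the choice.

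The wider integrin pathway was followed in 3 lists. Of 17 other integrin genes, 1 of them the integrin-like Itgbl1, 2 passed the filter. Itga5, the alpha chain of the fibronectin receptor, had a fold change of 1.29 in log2 units in WT microglia (SE 0.53, adjusted p 0.542), and Itgb3 one of -0.29 (SE 0.35, adjusted p 0.887, edgeR). Of 30 genes for activation and adaptors, such as the talin gene Tln1 and the kindlin gene Fermt3, 22 were tested, and 0 passed in any of the 5 contrasts. Their median log2 fold change in WT microglia was 0.12 with 15 positive, and the smallest p belonged to the Src-family kinase gene Fgr (2.65, SE 0.87, adjusted p 0.444), followed by the GTPase gene Rap1a (-0.83, SE 0.41, adjusted p 0.652) and by Apbb1ip (-0.49, SE 0.26, adjusted p 0.677), whose protein RIAM recruits talin (edgeR).

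Of the integrin ligand genes 11 were tested. Spp1, which encodes osteopontin, a ligand of integrins with the chains of Itgav, Itga4 or Itga9, rose in WT microglia (log2 fold change 4.89, SE 0.82, adjusted p 0.0136, edgeR). It had 110, 249 and 39 reads in WT microbead libraries, against 0, 8, 0 and 4 in WT sham libraries, 0, 5, 3 and 0 in Apoe-/- microbead libraries and 0 in each Apoe-/- sham library. In microbead retinas it was lower in Apoe-/- than in WT microglia (-5.15, SE 0.87, adjusted p 0.041, edgeR). The difference between the responses did not pass (unadjusted p 0.708, adjusted p 1.00, edgeR). That test cannot tell whether the responses differ, because all Apoe-/- sham libraries were at 0. For the same reason fitted folds against the Apoe-/- sham group are not given. Fn1, the fibronectin gene, had a fold change of 1.73 in log2 units in WT microglia (SE 0.51, adjusted p 0.327), and Ltbp1, for a binding protein of latent TGF-beta, one of -2.46 (adjusted p 0.505, edgeR). The median of the 11 was -0.020 with 5 positive.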

How the data were processed

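Sorted retinal microglia were sequenced as bulk RNA, with SMART-Seq2 (full-length cDNA from small inputs) named in the file headers. The authors deposited a Salmon table per library, per the file headers, with estimated counts of reads per transcript, TPM and effective lengths. They also deposited gene TPM for the series. The submitters' processing notes name Salmon 1.4.0, DESeq2 1.30.1, R 4.0.3 and mm10. Annotation, library type and read filters were not given in the sources used here.

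Of 116945 transcripts, 116023 were assigned to genes with GENCODE M21. The unassigned held 0.217 to 0.354% of reads and were left out. Estimated counts were rounded after summing over transcripts. Of 150 gene TPM values of the integrin genes deposited by the authors, 146 equalled the summed transcript TPM (relative tolerance 0.001), and the deposited values were used. The other 4 were of Itga6, where the deposited value was higher.

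The test was that of edgeR 4.0.16 under R 4.3.3 (quasi-likelihood F-test, TMM, filterByExpr) in 1 model of 15 libraries in 4 groups, two-sided, with Benjamini-Hochberg adjustment over 6521 genes and a threshold of 0.05. The common coefficient of biological variation was 34.4%. Library depth was 458111 to 714670 gene reads. The scripts were tested on simulated data. Alternatives used limma 3.58.1, DESeq2 1.42.0, other scalings, filters and pseudocounts, length offsets, a replicate block and each library left out. No replicates agreed within sampling noise.

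All integrin members are named; of other lists, genes past the threshold and the 3 with the smallest p in WT microglia; and the 5 genes nearest to Itgax. Members and lists were chosen with earlier results of these data known. Promoter sequences are from RefSeq.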

Additional observations from a re-analysis of the deposited data

Results flagged for a closer look

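Single libraries stood far from the rest of their group in 2 of the 30 groups of 4 libraries examined, by the gap to the nearest library as a share of the range (Dixon's criterion at 95%). Chance gives about 1 such group in 20. Itgam had 228 CPM in Apoe-/- sham library 3, above the other 3 libraries of that group. Itgb5 had 273 CPM in WT sham library 2, above the other 3 libraries of that group.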

How the results depend on the processing

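Itgax in WT microglia kept a positive log2 fold change under all 26 alternatives (1.89 to 2.76) and its call in 17 of them. Those 17 include every fit without an Apoe-/- library, which enters this contrast only through the filter, the scaling and the shared spread. Of the fits without a WT library 1 of 7 kept the call. The call of Itgax, and with it the count of integrin genes called, was lost (0 called) with log2(TPM + 0.1), with length offsets and with the replicate block, which gave 2.02 (adjusted p 0.0658). The count ran from 0 to 1 when single libraries were left out. In Apoe-/- against WT microbead retinas log2(TPM + 1) gave 1 gene called. DESeq2 called 36 genes in WT microglia and 23 between genotypes in microbead retinas, against 13 and 3 with edgeR; both called Itgax in WT microglia.

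The sign turned for small or low values. With log2(TPM + 0.1) it was 0.58 for Itga4 in WT microglia, 0.0037 for Itgb1 in Apoe-/- microglia, -0.34 for Itgax between genotypes in sham retinas, and for Itga9 -0.88 between genotypes in microbead retinas and -1.13 for the difference between responses. With log2(TPM + 1) it was 0.36 for Itga4 in WT microglia, -0.11 for Itgax in sham retinas, and for Itga9 -0.43 in microbead retinas and -0.54 for the difference. Length offsets gave -0.51 for that difference, no filter gave 0.00089 for Itgb1 in Apoe-/- microglia, and the replicate block gave -0.032 for Itgb5 in WT microglia. TMM from genes averaging at least 50 reads, chosen after seeing the data, gave -0.061 for Itgb5 in Apoe-/- microglia. The Itgb2 to Itgb1 ratio was 0.010 between genotypes in sham retinas with a pseudocount of 0.1, and the Itgav to Itgb5 ratio 0.155 in microbead retinas from reads. The cause was not tested.

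With single libraries left out, WT values ran from -0.39 to 0.012 for Itga4, -0.0015 to 0.38 for Itga6, -0.25 to 0.20 for Itgb5 and -0.071 to 0.38 for Itgb1, and Apoe-/- values from -0.31 to 0.20 for Itgb1 and -0.17 to 0.17 for Itgb5. Itgax ran from -0.34 to 0.48 between genotypes in sham retinas. Ratio differences ran from -0.033 to 0.26 for Itgax to Itgam in Apoe-/- microglia, from -0.72 to 0.083 for Itgav to Itgb5 in sham retinas and from -0.0021 to 0.245 for Itgb2 to Itgb1 in microbead retinas.

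Same-numbered libraries correlated at -0.161 to 0.223 and are not taken as pairs. Itgax, Itgal, Itga4 and Itga9 rest on few reads, and depth limits what can be said of them.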
